A study of Mus musculus with 60 samples.

Results

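CL6G26 is a subline of P19CL6, and its transcript levels were set against those of P19CL6 itself. The arrays were chosen by their titles: 5 replicates of CL6G26 and 5 of P19CL6, each measured on the oligonucleotide arrays MOE430A and MOE430B, which makes 20 of the 60 arrays of the series. Both strains are mouse embryonal carcinoma cells, which the labels trace to a male C3H embryo, and both were kept undifferentiated in alpha-MEM with fetal calf serum, with no treatment named. P19CL6 is labelled a substrain of P19, and CL6G26 a substrain of P19CL6. The other 40 arrays hold P19 and the P19CL6 sublines CL6G36, CL6G45 and CL6G52. The labels do not say how CL6G26 was selected, whether it is 1 clone, or whether its replicates were separate cultures. The p-values therefore reflect only how much arrays of the same strain vary, part of which may be technical. That spread was pooled over all 6 strains, not taken from CL6G26 and P19CL6 alone. It includes P19 and CL6G52, in each of which some replicates lay far from the others, as given below.

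Embryonal carcinoma cells are the malignant, pluripotent counterpart of the early embryo's epiblast and can form derivatives of all germ layers. P19CL6 is a P19 derivative known for forming beating cardiac muscle when it is induced with dimethyl sulfoxide. Sublines of one parent share most of their transcripts, so a comparison of this kind reads out the genes whose level differs between lineages grown alike. Arrays measure the RNA of a whole culture, and fewer cells with a transcript cannot be told apart from less of it per cell.

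The cell type was checked with markers. All 7 embryonal carcinoma markers examined lay above the floor on every array of both strains, and 0 of the 7 passed the test. The floor is the log2 signal below which a probe set was not treated as measured, 4.61 on MOE430A and 4.15 on MOE430B. Pou5f1, the pluripotency factor Oct4, was at 11.50 ± 0.08 in CL6G26 and 11.43 ± 0.06 in P19CL6 (log2 signal, mean ± SD, n = 5), and Nanog and Sox2 differed by -0.01 and -0.02. Of the markers of other cells, 4 of 7 for fibroblasts, 4 of 7 for primitive endoderm, 2 of 4 for trophoblast, 2 of 4 for neural cells and 2 of 5 for cardiac muscle lay above the floor on 0 arrays of either strain, and those bright enough to be tested did not pass. Krt8, a trophoblast and simple epithelial keratin outside this panel, fell by 0.80 (adjusted p = 0.000506).

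Median signals ran from 35.3 to 53.4 in CL6G26 and from 30.4 to 48.3 in P19CL6 on MOE430A, and from 10.6 to 14.0 and 10.8 to 14.1 on MOE430B. The Gapdh 3' to 5' probe set ratio, a sign of RNA integrity and labelling, was 0.858 ± 0.0225 in CL6G26 and 0.874 ± 0.0219 in P19CL6 on MOE430A (exact two-sided permutation test, p = 0.318; the smallest p this design allows is 0.00794) and 0.844 and 0.856 on MOE430B (p = 0.349). The P19CL6 arrays were not alike. Replicates 1 and 2 stood apart from replicates 3 to 5 for several genes. With replicates 3 to 5 alone the adjusted p was missed by Snx7, Kank1, Mt3 and Tmem45a among the called genes and by P4hb, Etv5, Egr1 and Blvrb among the list members described.

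A gene was called where its levels differed 2-fold or more and its adjusted p was below 0.05. Of 13181 genes tested, 34 were called (0.258%), with 7 higher in CL6G26 (0.0531%) and 27 lower (0.205%). By the adjusted p alone 164 genes passed (1.24%), 55 higher (0.417%) and 109 lower (0.827%), and 1417 genes had an unadjusted p under 0.05. The shares of 0.417% and 0.827% are the base for the list counts below. The lists were chosen with earlier results of these data known, so setting their counts beside these shares describes them and tests nothing. The arrays of the groups did not overlap for 547 genes (4.15%), among them 30 of the 34 called. Kank1, Fgfbp1, Tmem45a and Apobec1 were called with overlapping arrays. The difference over all genes had a median of -0.01. All differences below are log2 signal in CL6G26 minus P19CL6, with the standard error (SE) of the limma fit and its Benjamini-Hochberg adjusted p. With signals as deposited, without quantile normalization, the median of all genes moved to 0.125, and 22 genes were called, 20 of them among the 34.

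**Figure D1:**
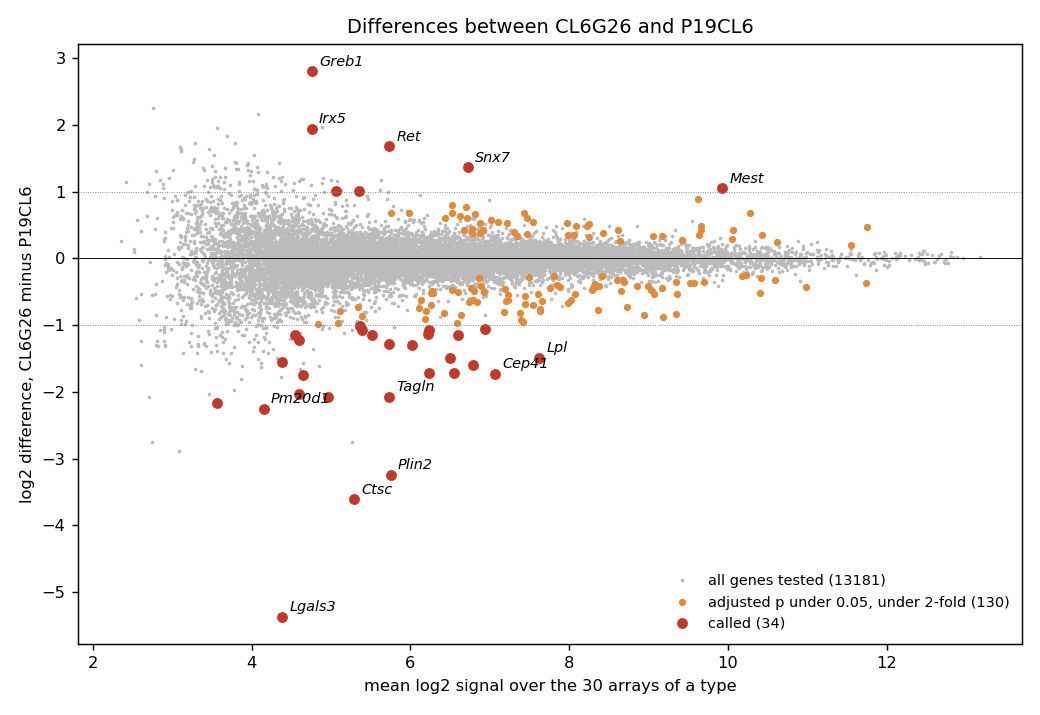
Difference between CL6G26 and P19CL6 (vertical axis, log2) against mean signal over the 30 arrays of a type (horizontal axis, log2) for the 13181 genes tested. Red points are the 34 called genes, orange points passed the adjusted p below 2-fold, and dotted lines mark 2-fold. Mest is the brightest called gene, while Greb1 and Lgals3 mark the extremes in each direction.

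Among the 7 higher genes, Greb1 had the largest difference. GREB1 is a growth regulator and chromatin-bound cofactor first described as an oestrogen-induced gene. Greb1 read 7.10, 7.28, 6.90, 7.04 and 6.99 in CL6G26 and 4.58, 4.37, 4.76, 4.62 and 2.97 in P19CL6. Every CL6G26 array lay above the P19CL6 arrays, of which only 2 of 5 reached the floor, and replicate 5 was the lowest. The difference was 2.80 ± 0.26 (adjusted p = 2.00e-08), or 2.42 with signals raised to the floor. A second probe set, on MOE430B and above the floor on all 10 arrays, ran from 8.70 to 9.02 in CL6G26 and from 5.32 to 6.34 in P19CL6, a difference of 2.93 ± 0.17 (adjusted p = 1.51e-14). The array types thus gave a like difference for Greb1, through different probes. Its other tested probe sets, dim ones, differed by 2.36 (adjusted p = 0.231) and 0.32 (0.947).

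Irx5, an Iroquois homeobox transcription factor that patterns the heart, retina and limb, read 7.01, 6.56, 6.95, 6.73 and 6.81 in CL6G26 and 4.74, 4.36, 5.19, 4.66 and 5.38 in P19CL6. The groups lay more than 1 log2 unit apart with no overlap, and the difference was 1.94 ± 0.25 (adjusted p = 5.03e-06). Ret is the receptor tyrosine kinase through which ligands of the glial cell line-derived neurotrophic factor family signal. Ret read 7.16, 7.03, 6.96, 7.12 and 6.92 in CL6G26 and 4.90, 5.89, 5.53, 4.90 and 5.54 in P19CL6, a difference of 1.68 ± 0.17 (adjusted p = 1.03e-07). CL6G26 was uniform and P19CL6 spread over about 1 log2 unit. On MOE430B the other tested Ret probe set read 6.39, 6.31, 6.02, 6.02 and 6.32 in CL6G26 and 3.18, 3.03, 3.44, 2.56 and 3.68 in P19CL6. There P19CL6 lay under the floor on all 5 arrays, so by that probe set Ret was at least 4.18-fold higher in CL6G26 (adjusted p = 0.00419). The bound is of that probe set alone. The MOE430A probe set, above the floor on every array of both strains, gave the smaller difference of 1.68.

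Of the other genes of the Ret pathway, 6 were tested and 0 passed, 5 of them at differences below 0 and with a median over all 7 members of -0.22. The ligand neurturin, Nrtn, differed by -0.49 (adjusted p = 0.216) and the co-receptors Gfra4 and Gfra2 by -0.27 (0.658) and -0.22 (0.676). Genes that report ERK activity, a route downstream of receptor tyrosine kinases, moved in both directions, with 1 of 15 higher and 1 lower. Etv5, an ETS factor induced by FGF and RET signals, rose by 0.31 (adjusted p = 0.0311), and Egr1, an immediate early factor, fell by 0.96 (adjusted p = 0.0410). Etv5 missed the threshold under 9 of 22 alternatives, among them without CL6G26 replicates 1, 3, 4 or 5 or P19CL6 replicates 1, 2 or 5, and Egr1 under 11, among them without CL6G26 replicates 3, 4 or 5 or P19CL6 replicates 1, 2, 3 or 4. Etv5 ran from 8.34 to 8.48 in CL6G26 and from 7.98 to 8.23 in P19CL6, with no overlap, while Egr1 ran from 5.83 to 6.89 and from 6.75 to 7.62 and overlapped. P19CL6 replicates 1 and 2 read 7.57 and 7.62 for Egr1, the highest of that strain, and with replicates 3 to 5 alone Egr1 differed by -0.77 (adjusted p = 0.195) and Etv5 by 0.29 (0.119). The feedback phosphatase gene Dusp6 differed by -0.30 (adjusted p = 0.201).

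Mest, the imprinted gene expressed from the paternal allele, encodes a hydrolase-fold protein of the endoplasmic reticulum. Mest read 10.89, 10.94, 10.90, 10.91 and 10.94 in CL6G26 and 9.83, 9.78, 10.01, 9.90 and 9.79 in P19CL6. With an SD of 0.02 in CL6G26 and 0.10 in P19CL6 the groups were far apart, and the difference was 1.05 ± 0.10 (adjusted p = 2.00e-08). Snx7, a sorting nexin of endosomal transport read on MOE430B, was at 8.45, 8.39, 8.18, 8.42 and 8.69 in CL6G26 and 6.73, 7.01, 7.22, 7.33 and 7.05 in P19CL6, a difference of 1.36 ± 0.24 (adjusted p = 0.00338). Its call was lost with P19CL6 replicates 3 to 5 alone (adjusted p = 0.0677) and with the deposited scaling (0.0997). Of 28 endosomal and sorting nexin genes tested, Snx7 alone passed, and the median of the list was -0.06.

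The remaining higher genes were nearer the floor and their calls were less stable. Tmem50b, a membrane protein gene, read 5.51, 5.67, 5.49, 5.78 and 5.58 in CL6G26 and 5.48, 5.12, 4.98, 3.51 and 3.91 in P19CL6, and Dhrs3, whose product reduces retinaldehyde to retinol, read 5.62, 4.83, 5.49, 5.27 and 5.66 against 4.81, 4.68, 4.83, 3.35 and 4.18. In both genes P19CL6 replicates 4 and 5 were the lowest and the other P19CL6 replicates lay close to CL6G26. The difference was 1.01 ± 0.24 for Tmem50b (adjusted p = 0.0190) and 1.01 ± 0.26 for Dhrs3 (adjusted p = 0.0416). Tmem50b lost its call under 8 of 22 alternatives, among them without CL6G26 replicates 2 or 4 or P19CL6 replicates 4 or 5 (0.73 without P19CL6 replicate 4), and Dhrs3 under 12, among them without CL6G26 replicates 1, 3, 4 or 5 or P19CL6 replicates 4 or 5 (0.75 without P19CL6 replicate 4).

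**Figure D2:**
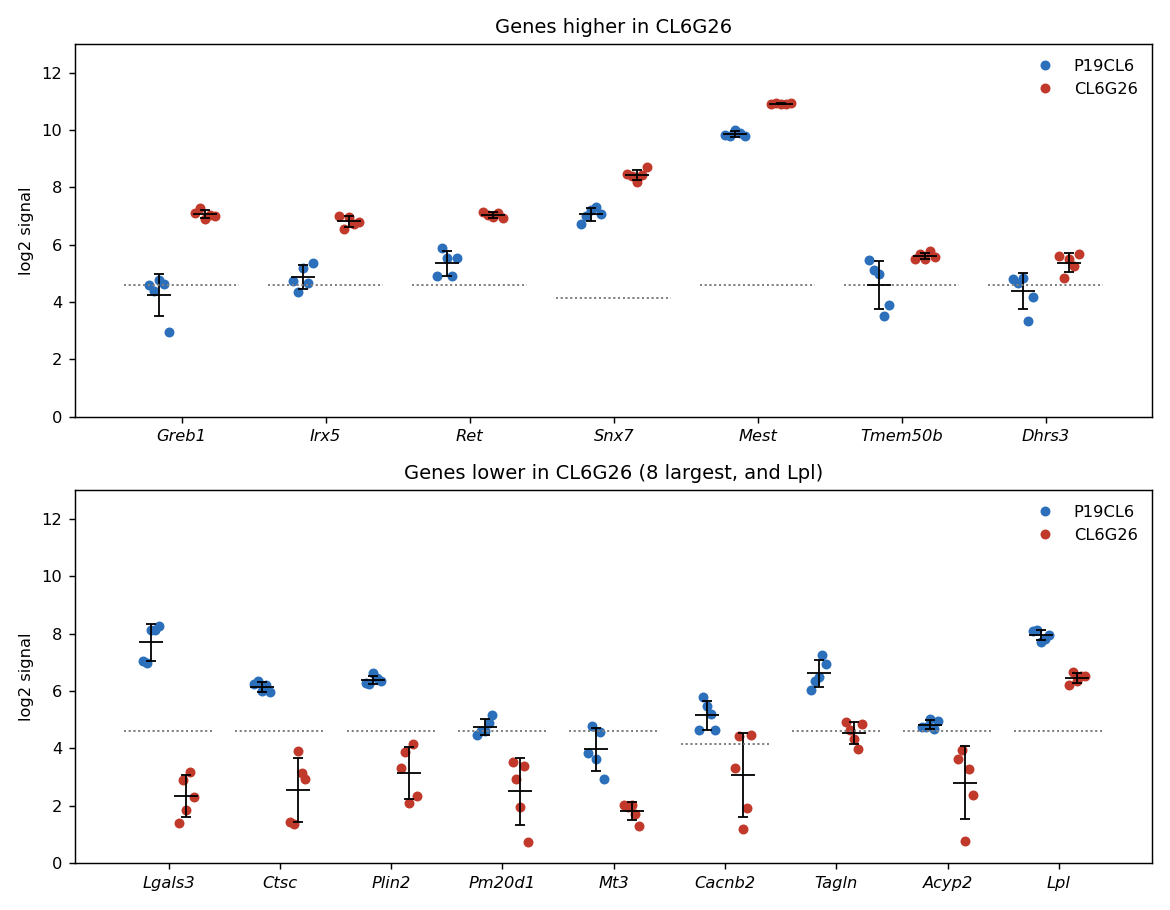
Log2 signal on every array of P19CL6 (blue) and CL6G26 (red) for the 7 higher called genes, the 8 largest decreases called without overlap and Lpl. Bars give the mean and SD of 5 arrays and dotted lines the floor of the array type that was read. Mest shows the tightest CL6G26 values, and Lgals3, Ctsc and Plin2 lay under the floor on all 5 CL6G26 arrays.

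The 27 lower genes included a lipid droplet coat gene and a lipase. Plin2, whose product coats intracellular lipid droplets, read 3.30, 3.86, 2.07, 4.14 and 2.35 in CL6G26 and 6.28, 6.25, 6.62, 6.43 and 6.36 in P19CL6. All 5 CL6G26 arrays lay under the floor, so the change has only a bound, at least 3.42-fold lower (adjusted p = 3.63e-09). Lpl, the lipase that releases fatty acids from lipoprotein triglyceride, read 6.21, 6.68, 6.34, 6.51 and 6.53 in CL6G26 and 8.10, 8.13, 7.72, 7.82 and 7.96 in P19CL6. Lpl was measured on all 10 arrays and differed by -1.49 ± 0.13 (adjusted p = 1.06e-08), and its other tested probe set differed by -0.97 ± 0.14 (adjusted p = 3.68e-05).

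The list of lipid droplet, lipase and lipid carrier genes had a median of -0.05. This list was chosen with earlier results known, and Plin2 and Lpl were markers given for this comparison, so its counts are no test. Of its 36 tested members 3 fell and 0 rose, against 0.827% and 0.417% of all genes. Beside Plin2 and Lpl this was Fabp5, a cytosolic fatty acid binding protein, at -0.44 ± 0.08, with 10.55 to 10.74 over the CL6G26 arrays against 10.93 to 11.20 in P19CL6 (adjusted p = 0.00116; 0.547 with the deposited scaling). Of 34 sterol and fatty acid synthesis genes 1 fell, Scd1, the desaturase that makes monounsaturated fatty acids, at -0.85 ± 0.12 (adjusted p = 1.62e-05; 0.151 with the deposited scaling). Scd1 read 8.41, 8.18, 8.48, 8.36 and 8.48 in CL6G26 and 9.30, 9.36, 9.11, 9.25 and 9.16 in P19CL6, with no overlap. Of 24 PPAR and fatty acid oxidation genes 0 passed, with 2 at an unadjusted p under 0.05, both higher, and a median of 0.06. Plin2, Lpl, Fabp5 and Scd1 thus stood out from lists whose other members did not pass.

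Lgals3, which encodes galectin-3, read 1.38, 2.91, 1.85, 3.19 and 2.32 in CL6G26 and 7.03, 6.97, 8.11, 8.12 and 8.25 in P19CL6, at least 8.47-fold lower (adjusted p = 1.80e-05). P19CL6 replicates 1 and 2 were below replicates 3 to 5, and every P19CL6 array was far above the floor. Lgals3 was the 1 galectin of 8 tested to pass. Ctsc, the lysosomal protease cathepsin C, read 1.43, 1.34, 3.91, 3.13 and 2.91 in CL6G26 and 6.25, 6.36, 5.98, 6.20 and 5.96 in P19CL6, at least 2.90-fold lower (adjusted p = 9.86e-07). Laptm4b, a lysosomal membrane protein, read 5.68, 6.59, 6.37, 5.77 and 5.70 against 7.15, 7.08, 8.01, 7.96 and 7.90, a difference of -1.60 ± 0.22 (adjusted p = 1.64e-05). Its brightest probe set, of a kind that can bind more than 1 transcript, differed by -1.49 ± 0.13. Ctsc and Laptm4b were the 2 members that fell among 50 lysosomal genes tested, of which 0 rose (median -0.02). Of all genes tested, 0.827% fell and 0.417% rose.

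Cep41, a centrosomal protein that acts in tubulin glutamylation of cilia, lies beside Mest. It read 5.67, 5.41, 4.93, 5.77 and 6.04 in CL6G26 and 7.44, 7.38, 7.02, 7.39 and 7.23 in P19CL6, a difference of -1.73 ± 0.14 (adjusted p = 1.44e-09). On MOE430B, Cep41 read 6.57, 6.33, 6.35, 6.60 and 6.14 against 8.49, 8.40, 8.37, 8.48 and 8.33, a difference of -2.02 ± 0.10 (adjusted p = 1.45e-15), and a further probe set differed by -1.11 (adjusted p = 0.00620). Cep41 was the 1 gene of 36 centrosome and cilium genes to pass. Ptgr1, a reductase of prostaglandins and leukotrienes, read 5.16, 5.48, 5.30, 5.44 and 5.34 in CL6G26 and 7.13, 6.80, 7.26, 7.14 and 7.01 in P19CL6, with no overlap. Of the 35 NRF2 and redox genes tested, to which Ptgr1 belongs, 2 fell and 1 rose. Besides Ptgr1, superoxide dismutase 1, Sod1, fell by 0.30 (adjusted p = 0.00675; 0.839 with the deposited scaling and, at -0.16, 0.427 with the mean of its probe sets) and the biliverdin reductase gene Blvrb rose by 0.57 (adjusted p = 0.0399). Blvrb missed the threshold under 13 of 22 alternatives, 8 of which left out 1 replicate, of CL6G26 2 to 5 or of P19CL6 2 to 5.

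Tagln, which encodes the actin-binding protein transgelin, read 4.92, 4.62, 4.31, 3.98 and 4.86 in CL6G26 and 6.04, 6.36, 6.49, 7.24 and 6.93 in P19CL6, a difference of -2.08 ± 0.27 (adjusted p = 6.34e-06), or -1.89 with signals raised to the floor. Cacnb2, the beta-2 subunit of voltage-gated calcium channels, read 3.31, 4.43, 1.19, 1.91 and 4.46 in CL6G26 on MOE430B against 4.63, 5.80, 5.46, 5.20 and 4.63, with 2 of 5 CL6G26 arrays above the floor. With signals raised to the floor Cacnb2 changed by -0.88, and it did not pass with the 2 strains alone (adjusted p = 0.243).

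Several of the large decreases were of dim genes. Acyp2, an acylphosphatase, read 3.62, 3.93, 0.77, 3.26 and 2.38 in CL6G26 and 4.76, 4.76, 5.01, 4.66 and 4.96 in P19CL6, at least 1.16-fold lower. Pm20d1, an enzyme that forms N-acyl amino acids, read 3.51, 2.93, 1.93, 3.39 and 0.73 against 4.47, 4.62, 4.61, 4.89 and 5.17. Mt3, a metallothionein, read 2.01, 1.95, 2.04, 1.69 and 1.29 against 3.83, 4.79, 3.64, 4.58 and 2.94. These P19CL6 values lay at or near the floor, with 5, 3 and 1 of 5 arrays above it. With signals raised to the floor Acyp2, Pm20d1 and Mt3 changed by -0.21, -0.17 and -0.03 and did not pass. The same held for Apobec1, the cytidine deaminase that edits apolipoprotein B mRNA, at -0.50, and for Tmem45a, a membrane protein gene, at -0.01. Mt3 also lost its call without CL6G26 replicates 4 or 5 or P19CL6 replicates 2 or 4, and Tmem45a without CL6G26 replicates 1 to 4 or P19CL6 replicates 1, 2, 4 or 5. Igha, the immunoglobulin alpha constant region, was under the floor on all CL6G26 arrays. Its fitted difference was -1.23, or -0.34 with signals raised to the floor (adjusted p = 0.393), and without the filter on low signals another probe set took its place, with means of 2.89 and 2.24 under the floor, at a difference of 0.65. Its call was also lost without CL6G26 replicates 1 or 5 or P19CL6 replicate 5.

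Cited2, a CBP/p300-binding coregulator, read 5.85, 5.24, 4.90, 5.54 and 5.47 in CL6G26 and 6.61, 6.56, 7.43, 7.30 and 7.67 in P19CL6 (-1.71 ± 0.18, adjusted p = 2.05e-07), and it was the 1 of 3 Cited genes to pass. Its other tested probe set differed by -0.97 (adjusted p = 0.0591), with arrays that overlapped between the strains. Prdm1, the repressor Blimp1 that specifies germ cells, differed by -1.07 ± 0.21 (adjusted p = 0.00218; 0.0517 with the deposited scaling, and -0.99, short of 2-fold, without P19CL6 replicate 5). Uhrf2, a ubiquitin ligase that binds modified cytosines, differed by -1.14 ± 0.18 on MOE430B. Sfrp1, a secreted Wnt antagonist, differed by -1.29 ± 0.27 (adjusted p = 0.00573), with 4.05 to 4.72 over the CL6G26 arrays and 5.34 to 6.18 over those of P19CL6. Its 4 other tested probe sets differed by -0.66 to -1.25, none past the threshold. The Sfrp1 call was lost with the mean of its probe sets (-0.975, adjusted p = 0.0579) and with the deposited scaling (0.066). Fgfbp1, a secreted carrier of fibroblast growth factors, was under the floor on all CL6G26 arrays, so its fitted difference of -1.15 is not a measured size. With signals raised to the floor it was -0.48 (adjusted p = 0.0647), and Fgfbp1 lost its call under 7 alternatives, among them without CL6G26 replicate 3 or P19CL6 replicates 3, 4 or 5. Cdc42ep5, an effector of the GTPase Cdc42, differed by -1.29 ± 0.25, with P19CL6 replicates 1 and 2 at 6.31 and 6.35 and replicates 3 to 5 at 6.97 to 7.26. Its other tested probe set, a dim one, differed by -0.29 (adjusted p = 0.931), and the mean of both by -0.79 (0.347), which ended the call.

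Xrcc5, the Ku80 subunit of the end-joining repair complex, differed by -1.06 ± 0.11 (adjusted p = 1.85e-07) and Klhl22, an adaptor of a cullin-3 ubiquitin ligase, by -1.08 ± 0.11 (1.24e-07). Pdf, a peptide deformylase of mitochondria, differed by -1.14 ± 0.14 (4.00e-06) and Ada, adenosine deaminase, by -1.15 ± 0.20 (0.000825). With the deposited scaling Klhl22, Pdf and Ada kept an adjusted p under 0.05 but fell short of 2-fold, at -0.90, -0.95 and -0.99, and Xrcc5 missed both limits (-0.87, adjusted p = 0.0549). Xrcc5 was also short of 2-fold with P19CL6 replicates 3 to 5 alone (-0.99). Ada also fell short of 2-fold without CL6G26 replicate 1. Kank1, a regulator of actin at the cell cortex, was the least stable call at -1.01 ± 0.22 (adjusted p = 0.0337), lost under 13 of 22 alternatives, among them P19CL6 replicates 3 to 5 alone (adjusted p = 0.148) and without CL6G26 replicates 2, 3 or 4 or P19CL6 replicates 1, 2, 3 or 5.

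Over the 34 genes, 8 had other tested probe sets, 15 in all, and all 15 differed in the same direction as the one used, with 7 past the adjusted p. A further 5 called probe sets carried no single gene name. Of the 34 calls, 15 held under all 22 alternatives: Greb1, Irx5, Ret, Mest, Uhrf2, Lpl, Ifitm1, Laptm4b, Cited2, Ptgr1, Cep41, Tagln, Plin2, Ctsc and Lgals3.

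To ask which differences set CL6G26 apart from its sister sublines as well, CL6G26 was tested against the mean of CL6G36, CL6G45 and CL6G52, a comparison that uses no P19CL6 array but the same CL6G26 arrays. It called 111 of all genes tested (0.842%), 51 higher and 60 lower, and 12.0% of genes passed the adjusted p alone. It called 47 with signals raised to the floor. Of the 34 genes, 18 were called there in the same direction: Greb1, Irx5, Ret, Snx7, Mest, Igha, Sfrp1, Lpl, Tmem45a, Ptgr1, Cep41, Apobec1, Acyp2, Cacnb2, Mt3, Pm20d1, Plin2 and Ctsc. Of these, 8 lay under the floor on all CL6G26 arrays. Raised to the floor, 11 of the 18 kept the call: Greb1, Irx5, Ret, Snx7, Mest, Sfrp1, Lpl, Ptgr1, Cep41, Cacnb2 and Plin2. At the main setting the number was also 18 without CL6G52 replicate 1, an array that lay with CL6G45 in an earlier analysis of these data. Xrcc5, Uhrf2 and Tagln passed the adjusted p in the same direction below 2-fold. For 12 genes the difference from the other sublines did not pass: Tmem50b, Dhrs3, Kank1, Prdm1, Klhl22, Pdf, Ada, Fgfbp1, Cdc42ep5, Laptm4b, Cited2 and Lgals3.

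The levels in all 6 strains show this directly. Greb1 was at 7.06 ± 0.14 in CL6G26, while the means of the other strains ran from 4.17 in CL6G36 to 4.56 in CL6G52, all under the floor. Irx5 was at 6.81 ± 0.18, against 4.87 in P19CL6, 4.95 in P19 and 3.73 to 4.12 in the other sublines. For Ret the other 5 strains ran from 5.35 to 5.67 in the mean, with no array above 5.90, and the lowest CL6G26 array read 6.92. The lowest Mest reading of CL6G26, 10.89, lay above the highest of any other strain, 10.24 in P19. Plin2 stood at 5.96 to 6.68 in the means of the other 5 strains and at 3.14 ± 0.91 in CL6G26. The highest CL6G26 array for Lpl read 6.68 and the lowest of any other strain 7.27. Cep41 was at 5.57 ± 0.42 in CL6G26, with its highest array at 6.04, and the lowest array of any other strain read 7.02.

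**Figure D3:**
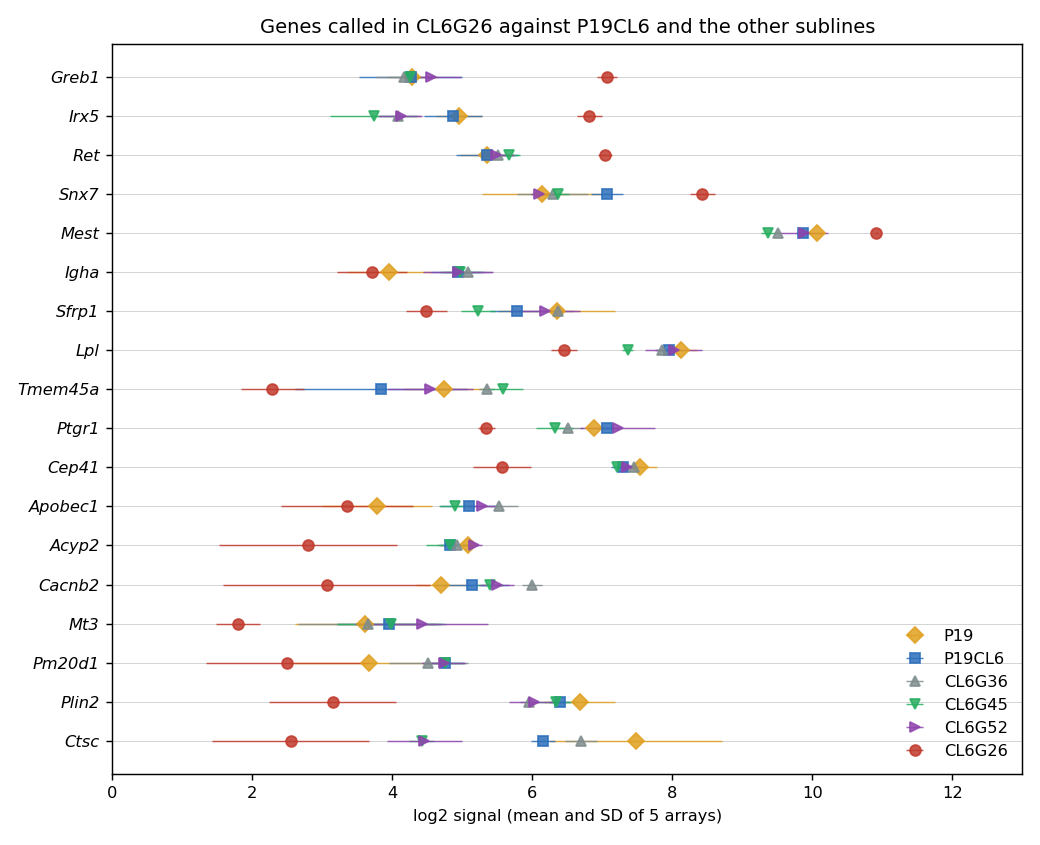
Mean log2 signal with SD over 5 arrays in the 6 strains for the 18 genes called in CL6G26 against P19CL6 and against the mean of the other sublines. CL6G26 (red circles) is the highest strain for Greb1, Irx5, Ret, Snx7 and Mest and the lowest for the other 13 genes.

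Ifitm1, an interferon-induced membrane protein of early germ cells, went in opposite directions in the 2 comparisons. It read 6.72, 6.54, 6.24, 6.47 and 6.80 in CL6G26 and 7.09, 7.30, 8.57, 8.48 and 8.84 in P19CL6, a difference of -1.50 ± 0.28 (adjusted p = 0.00186), or -2.07 with P19CL6 replicates 3 to 5 alone. Against the mean of the other sublines Ifitm1 was higher in CL6G26, by 1.43 (adjusted p = 6.44e-05), since they stood at 4.48 ± 0.60, 5.21 ± 0.15 and 5.70 ± 0.53. CL6G26 thus lay between P19CL6 and the other sublines. In the interferon and MHC list 3 of 31 genes fell against P19CL6 and 0 rose, where 0.827% and 0.417% of all genes did. Those that fell were Ifitm1, the transcription factor Irf1 at -0.71 (adjusted p = 0.000767) and the peptide-loading chaperone Tapbp at -0.63 (adjusted p = 0.0344). Irf1 ran from 7.17 to 7.51 in CL6G26 and from 7.82 to 8.28 in P19CL6, and did not pass with signals as deposited (0.246). Tapbp read 6.88, 6.74, 6.70, 6.84 and 6.74 against 6.98, 7.03, 7.55, 7.67 and 7.81, so P19CL6 replicates 1 and 2 lay close to CL6G26. Tapbp missed the threshold under 11 alternatives, among them without any 1 CL6G26 replicate or P19CL6 replicate 3, 4 or 5.

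Mest and Cep41 are neighbours on chromosome 6, and the tested genes around them were followed in the order given by RefSeq (GRCm38.p6). From one side to the other these were Zc3hc1, Klhdc10, Tmem209, Ssmem1, Cpa4, Cep41, Mest, Copg2, Klf14, Mkln1, Podxl, Plxna4 and Plxna4os1. Besides Cep41 and Mest, which differed in opposite directions, 1 of the 13 passed, Podxl, a sialomucin of pluripotent and epithelial cells. Podxl differed by -0.41 ± 0.09 (adjusted p = 0.00575), with 8.90, 8.72, 8.94, 8.70 and 8.58 in CL6G26 and 8.89, 8.93, 9.29, 9.36 and 9.40 in P19CL6. Its CL6G26 arrays overlapped P19CL6 replicates 1 and 2 only, and it missed the threshold with the 2 strains alone (0.0597), the mean of its probe sets (0.104) and the deposited scaling (0.563). Copg2, a vesicle coat protein gene and the next tested gene after Mest, ran from 7.18 to 7.48 in CL6G26 and from 7.41 to 7.59 in P19CL6, and its difference of -0.18 ± 0.12 did not pass.

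**Figure D4:**
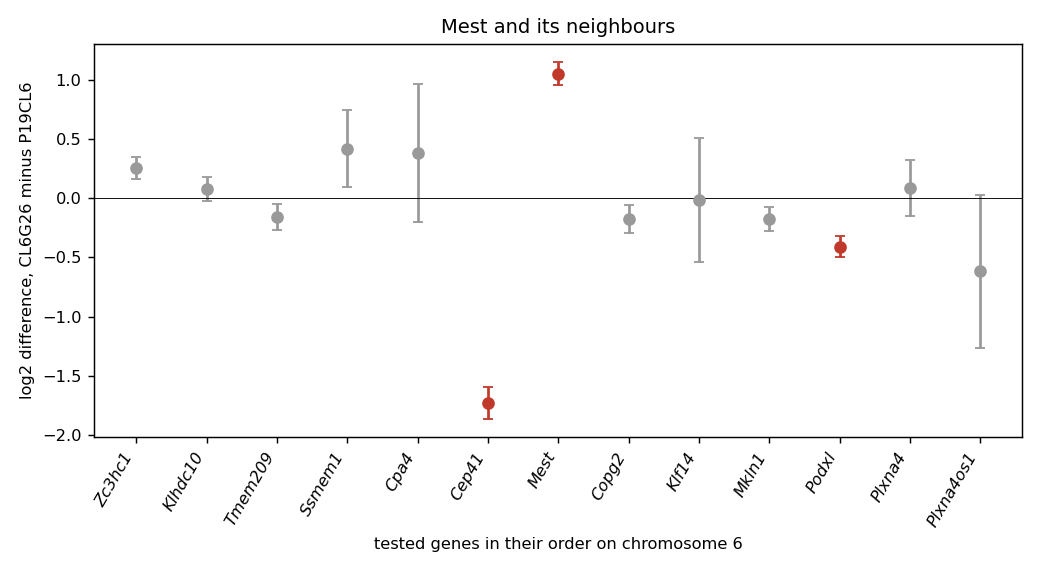
Difference between CL6G26 and P19CL6 (log2, with SE) for 13 tested genes in their order along chromosome 6, evenly spaced. Red points passed the adjusted p. Mest, at 1.05, and its neighbour Cep41, at -1.73, lie in opposite directions, and Podxl is the only other of the 13 that passed.

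Imprinted genes elsewhere in the genome did not follow Mest. Of 40 tested, with a median of -0.12, 0 rose and 3 fell, against 0.417% and 0.827% of all genes. The 3 were Peg3, a paternally expressed zinc finger gene, at -0.84 ± 0.12 (adjusted p = 2.91e-05), Sgce, epsilon-sarcoglycan, at -0.82 ± 0.13 (0.000294), and Igf2, the growth factor, at -0.74 ± 0.15 (0.00339). Peg3 read 9.32, 9.21, 8.98, 9.04 and 9.14 in CL6G26 and 9.74, 9.70, 10.31, 10.06 and 10.08 in P19CL6, with no overlap. Sgce read 6.92, 7.42, 7.02, 6.91 and 6.87 against 7.78, 7.78, 8.06, 7.64 and 7.98. Igf2 read 5.90, 5.52, 5.98, 5.16 and 5.74 against 6.25, 6.40, 6.51, 6.48 and 6.38. With the deposited scaling none of these 3 passed (adjusted p from 0.124 to 0.373). Against the other sublines Igf2 was lower in CL6G26 (-0.40, adjusted p = 0.0255), while Peg3 (0.23, adjusted p = 0.107) and Sgce (-0.26, 0.106) did not pass.

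The calls lay on many chromosomes. The most on one chromosome were 5, of 682 tested genes on chromosome 8, where 0.258% of all genes were called. The median difference per autosome ran from -0.03 on chromosome 1 to 0.01 on chromosome 17. Of the 34 genes, 26 had 0 genes past the adjusted p among the 4 tested genes on each side, where 1.24% of all genes passed. The medians of the neighbours of all 34 ran from -0.18 to 0.13. Apart from the Mest locus, neighbours that passed were Pdia6 near Greb1, both of which rose, and 1 gene each near Pdf, Ptgr1, Apobec1, Acyp2 and Cacnb2.

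Genes of the unfolded protein response formed the list with the most increases. This response senses misfolded protein in the endoplasmic reticulum and raises chaperones, folding enzymes and degradation factors, many of them through the factors ATF6 and XBP1 at a promoter element named ERSE. Of 35 members tested 8 rose and 0 fell, against 0.417% and 0.827% of all genes, and 30 of 35 differences were above 0 (median 0.20). Manf, a secreted folding factor, read 10.10, 10.32, 10.27, 10.09 and 10.29 in CL6G26 and 9.40, 9.69, 9.67, 9.52 and 9.37 in P19CL6, a difference of 0.69 ± 0.12 (adjusted p = 0.000488). Xbp1, a transcription factor of the response, read 9.88, 9.78, 9.78, 9.68 and 9.76 against 9.17, 9.48, 8.65, 8.48 and 8.66, a difference of 0.89 ± 0.16 (adjusted p = 0.00136). P19CL6 replicates 1 and 2 were the higher of their group for Xbp1 and still below every CL6G26 array. The other tested Xbp1 probe sets differed by 1.35 (adjusted p = 6.34e-06), 0.75 (0.00433) and 0.27 (0.555). The disulfide isomerase Pdia6 read 9.62, 9.69, 9.73, 9.63 and 9.71 against 9.13, 9.23, 9.18, 9.23 and 9.45, and Sdf2l1, a chaperone cofactor, read 7.71, 8.10, 8.01, 7.98 and 8.05 against 7.46, 7.54, 7.21, 7.41 and 7.60.

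The chaperones of the compartment followed. Hspa5, the main lumenal chaperone BiP, read 11.82, 11.74, 11.74, 11.68 and 11.73 in CL6G26 and 11.20, 11.57, 11.36, 11.09 and 11.11 in P19CL6, a difference of 0.47 ± 0.10 (adjusted p = 0.00796). The other tested Hspa5 probe sets differed by 0.47 (adjusted p = 0.0683) and 0.12 (0.888) and did not pass. Hsp90b1, the BiP partner GRP94, differed by 0.43 (adjusted p = 0.0136), P4hb, protein disulfide isomerase, by 0.35 (0.0150) and Dnajc3, a co-chaperone, by 0.64 (0.0415). With the deposited scaling 4 members rose, Manf, Pdia6, Sdf2l1 and Xbp1, beside the general shift of 0.125. Dnajc3 missed the threshold under 13 of 22 alternatives, among them without CL6G26 replicates 1, 2, 4 or 5 or P19CL6 replicates 1, 3, 4 or 5. Hsp90b1 missed it without CL6G26 replicate 4 (0.0550), P4hb without CL6G26 replicate 3 or P19CL6 replicate 1 (0.0616 and 0.0542) and with P19CL6 replicates 3 to 5 alone (0.0921), and Pdia6 with the mean of its probe sets (0.457). CL6G26 was not the highest strain for all of these genes. Hspa5 was at 11.27 in P19CL6, 11.74 in CL6G26, 12.10 in CL6G45 and 12.22 in CL6G36. The level in CL6G52 is not among these values. Against the mean of the other sublines, 5 of the 8 genes were lower in CL6G26 and 0 were higher by the adjusted p. In that comparison 12.0% of all genes passed in either direction, and the mean does not place CL6G26 below each subline. Manf was at -0.47 (adjusted p = 0.000748), Pdia6 at -0.32 (0.000886), Sdf2l1 at -0.37 (0.00439), Hspa5 at -0.30 (0.0155) and Dnajc3 at -0.44 (0.0266).

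Promoter sequences are shown for the 4 of the 8 genes in which the element was found. Not all of the 8 had a matched promoter to search. RefSeq promoters (GRCm38.p6) were matched for 31 of the 35 tested members, and the 250 bases before each start site were searched on both strands for ERSE, spelled CCAAT, then any 9 bases, then CCACG. Of 32851 promoters in the table, 37 (0.113%) held it, in 35 genes (0.13% of genes). Among the 31 members, 10 held it, of which 4 rose: Pdia6, Hspa5, Hsp90b1 and Dnajc3. Of the 21 without it 3 rose. The differences had a median of 0.39 with the element and 0.13 without it. The sequences run from 250 bases to 1 base before the start, 5′ to 3′ along the gene, with the fixed letters of the element in capitals.
Pdia6, chr12:17266339-17266588, strand +: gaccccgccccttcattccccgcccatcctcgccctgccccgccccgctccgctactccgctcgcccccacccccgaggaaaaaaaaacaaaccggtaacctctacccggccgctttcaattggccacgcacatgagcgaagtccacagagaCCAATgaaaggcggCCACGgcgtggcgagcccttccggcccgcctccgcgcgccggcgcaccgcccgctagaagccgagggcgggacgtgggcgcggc
Hspa5, chr2:34771840-34772089, strand +: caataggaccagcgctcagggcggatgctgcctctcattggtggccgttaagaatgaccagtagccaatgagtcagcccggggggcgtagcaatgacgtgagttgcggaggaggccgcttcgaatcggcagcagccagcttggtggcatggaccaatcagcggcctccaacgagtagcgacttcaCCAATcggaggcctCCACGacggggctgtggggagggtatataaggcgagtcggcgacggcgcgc
Hsp90b1, chr10:86705445-86705694, strand -: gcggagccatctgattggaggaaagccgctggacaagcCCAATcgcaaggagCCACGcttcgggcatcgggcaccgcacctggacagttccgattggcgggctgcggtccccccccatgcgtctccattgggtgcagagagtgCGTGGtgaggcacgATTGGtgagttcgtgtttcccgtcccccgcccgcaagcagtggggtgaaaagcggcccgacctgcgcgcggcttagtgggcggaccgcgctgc
Dnajc3, chr14:118937682-118937931, strand +: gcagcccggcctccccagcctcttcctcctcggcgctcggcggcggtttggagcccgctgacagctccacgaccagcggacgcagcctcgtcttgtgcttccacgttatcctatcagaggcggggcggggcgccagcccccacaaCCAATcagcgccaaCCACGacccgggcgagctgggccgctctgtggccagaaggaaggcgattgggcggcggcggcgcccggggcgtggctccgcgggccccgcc
Counted from the start site, the element ran from -98 to -80 in Pdia6, from -65 to -47 in Hspa5 and from -105 to -87 in Dnajc3. Hsp90b1 held it from -212 to -194, and on the opposite strand from -107 to -89. The other holders were Calr, Creld2, Ero1b, Syvn1, Derl3 and Canx, at differences from 0.08 to 0.62 that did not pass. The related element ERSE-II, ATTGG, any 1 base and CCACG, was held by 10 promoters of the table, among them that of Herpud1, which differed by 0.13 (adjusted p = 0.935). A match of letters is not a measurement of binding.

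Genes of the actin and muscle cytoskeleton formed the list with the most decreases. Of 37 tested 7 fell and 0 rose, against 0.827% and 0.417% of all genes, and 4 differences were above 0 (median -0.25). Besides Tagln these were Actc1, cardiac alpha-actin, the matrix protein gene Ccn1, the calponin gene Cnn2, the tropomyosin genes Tpm4 and Tpm1, and Myh9, non-muscle myosin heavy chain. Actc1 read 4.15, 4.76, 4.92, 4.49 and 4.58 in CL6G26 and 5.48, 5.41, 5.55, 5.70 and 5.60 in P19CL6, a difference of -0.97 ± 0.18 (adjusted p = 0.00136), with 2 of 5 CL6G26 arrays above the floor. Ccn1 read 5.70, 5.85, 5.77, 5.89 and 5.80 against 6.30, 6.64, 6.85, 6.80 and 6.35 (-0.78 ± 0.15, adjusted p = 0.00270). Cnn2 read 8.69, 8.82, 8.85, 8.76 and 8.73 against 9.10, 9.11, 9.25, 9.40 and 9.34 (-0.47 ± 0.09, adjusted p = 0.00288). These 3 genes did not overlap between the groups.

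The smaller changes of the list were -0.37 ± 0.08 in Tpm4 (adjusted p = 0.0151), -0.41 ± 0.10 in Tpm1 (0.0241) and -0.26 ± 0.06 in Myh9 (0.0179). With the deposited scaling only Tagln passed. Without 1 replicate the number that fell ran from 4, without P19CL6 replicate 5, to 8. Tpm1 missed the threshold without CL6G26 replicates 3, 4 or 5 or P19CL6 replicates 3, 4 or 5, Tpm4 without P19CL6 replicates 4 or 5, and Myh9 without CL6G26 replicates 3 or 4 or P19CL6 replicate 5. Against the other sublines, 2 of the 7 were lower in CL6G26, Tagln (-0.93) and Myh9 (-0.25). Of all genes 12.0% passed the adjusted p in that comparison, in either direction. The CArG box, the binding element of serum response factor, stood in the searched stretch of 7 of 32 matched members, among them Actc1 and Cnn2. It stood in 1.47% of all promoters, or 1.62% of genes. Of these 7 members 2 fell, and of the 25 without it 4 fell, with medians of -0.34 and -0.25. Cardiac transcription factors did not move with these genes, with 0 of 10 past the test, 1 at an unadjusted p under 0.05, and the nearest, Mef2d, at -0.29 (adjusted p = 0.377).

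**Figure D5:**
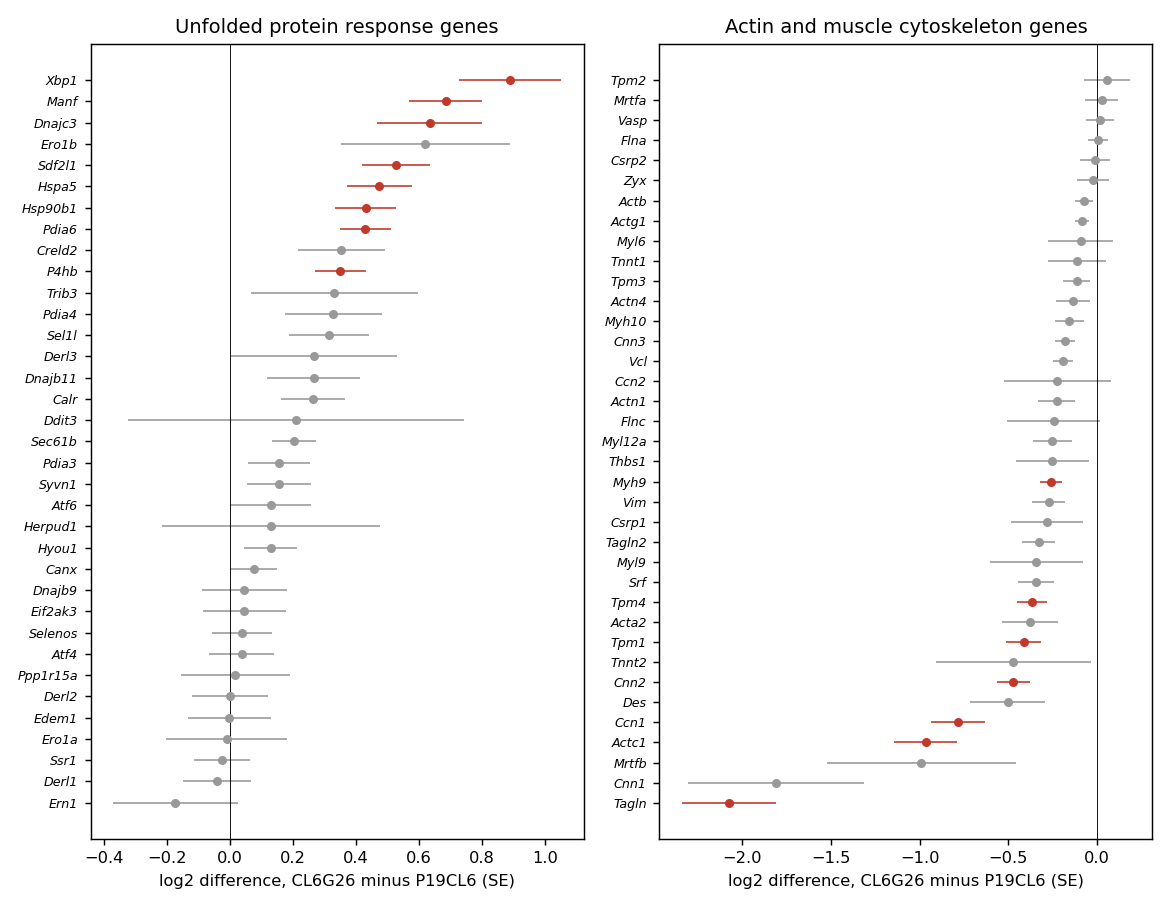
Difference between CL6G26 and P19CL6 (log2, with SE) for the tested members of the unfolded protein response list (left) and the actin and muscle cytoskeleton list (right), ordered by size. Red points passed the adjusted p: 8 of 35, all higher, and 7 of 37, all lower.

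Signalling and lineage lists held few changes. Of 38 Wnt genes Sfrp1 alone passed, and Sp5, a Wnt target, differed by -1.39 ± 0.51 (adjusted p = 0.200). Of 21 BMP genes 1 fell, Id1, an inhibitor of helix-loop-helix factors, by 0.82 (adjusted p = 0.0377), and of 20 Nodal and activin genes 1 fell, Fst, the activin antagonist follistatin, by 0.78 (adjusted p = 0.0271). Id1 missed the threshold under 10 alternatives, among them without CL6G26 replicates 1 to 4 or P19CL6 replicates 3, 4 or 5, and Fst under 8, among them without CL6G26 replicates 3, 4 or 5 or P19CL6 replicates 3, 4 or 5. In both genes P19CL6 replicates 1 and 2 were the lowest of their group, at 6.56 and 6.55 for Id1 and 9.70 and 9.46 for Fst. Against the mean of the other sublines Fst was higher in CL6G26 (2.09, adjusted p = 5.42e-11).

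Of 19 shared pluripotency genes 1 rose, Foxd3, a forkhead factor of epiblast and neural crest, by 0.53 (adjusted p = 0.0384; under 11 alternatives it missed the threshold, among them without any 1 CL6G26 replicate or P19CL6 replicates 3, 4 or 5). Of 18 primed epiblast genes N-cadherin, Cdh2, fell by 0.49 (adjusted p = 0.00433), and of 18 primitive streak and mesoderm genes Nkx1-2, a homeobox gene of the caudal epiblast, fell by 0.98 (0.00596). Krt8, a keratin of simple epithelia, fell by 0.80 (0.000506), the 1 of 7 trophoblast markers to do so, while its partner Krt18 differed by -0.50 (0.123). Krt8 read 6.99, 7.17, 7.01, 6.92 and 6.96 in CL6G26 and 7.41, 7.69, 8.26, 7.67 and 8.02 in P19CL6, and Cdh2 ran from 6.42 to 6.72 against 6.78 to 7.26. Neither gene overlapped between the strains. Nkx1-2 read 5.25, 4.73, 4.84, 4.88 and 5.05 against 5.40, 5.75, 6.16, 6.18 and 6.15, with P19CL6 replicates 1 and 2 nearest to CL6G26. With the deposited scaling Cdh2, Nkx1-2 and Krt8 did not pass (0.446, 0.252 and 0.148), and Nkx1-2 also did not with the mean of its probe sets (-0.82, adjusted p = 0.242). Of 10 naive pluripotency genes 0 passed, and 0 of the 10 had an unadjusted p under 0.05.

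Of 45 cell cycle genes 0 passed, with 2 higher and 1 lower at an unadjusted p under 0.05, the latter Cdkn1a, the inhibitor p21, at -0.85 (adjusted p = 0.0591). That gene is also the leading member of the 29 p53 targets, of which 0 passed, 8 were lower and 1 higher at an unadjusted p under 0.05, and the median was -0.30, with 6 of 29 differences above 0. Of 35 hypoxia and glycolysis genes 1 fell, the glucose transporter gene Slc2a3, by 0.38 (0.000419; 0.490 with the deposited scaling and 0.677 with the mean of its probe sets). Of 16 heat shock genes, 27 genes of serine, one-carbon and amino acid transport, 25 basement membrane genes and 10 DNA methylation enzymes 0 passed, and at an unadjusted p under 0.05 the numbers higher and lower were 1 and 3, 5 and 3, 0 and 3, and 0 and 0 in that order. These list counts are of the main setting, at which 164 genes passed. Without the P19 arrays and CL6G52 replicate 1, 360 genes passed, so a member that did not pass is not shown to be unchanged.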

How the data were processed

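RNA of 6 strains, 5 replicates each, was hybridised to MOE430A and MOE430B arrays. The deposited values are linear signal intensities per probe set made with GCOS, per the submitters' processing notes; its version and the scaling are not given in the sources used here. Probe sets were named from the platform annotation; 20380 and 14661 had 1 gene symbol.

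Signals under 1 were set to 1, quantile normalized within each array type and then log2-transformed. Signals at or under the 40th (MOE430A) or 60th (MOE430B) percentile were treated as not measured, and probe sets above this floor on 5 or more of 30 arrays were tested. A gene was read from MOE430A where it had a tested probe set there, and otherwise from MOE430B. Within that array type it took its brightest tested probe set. Probe sets of the x_at kind, which can bind more than 1 transcript, were used only where there was no other. Differences were tested, two-sided, with limma 3.58.1 in R 4.3.3, as a group-means model over the 30 arrays (24 residual degrees of freedom) with a trend in eBayes. The p-values were Benjamini-Hochberg adjusted over the tested probe sets of an array type. The scripts were tested on simulated data. "At least" folds set the measured group's mean against the floor.

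Named were all called genes, up to 4 members of each list by adjusted p, and the neighbours of Mest; further members were chosen after their values were seen. The gene lists and members were chosen with earlier results of these data known. Replicate numbers did not pair the arrays: correlations of same-numbered deviations lay between -0.03 and 0.07. In all, 22 alternatives of scaling, floor, filter, arrays, trend, probe set and replicates were run. Motifs and figures were made with Python 3.11.15.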

Additional observations from a re-analysis of the deposited data

Results flagged for a closer look

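Of 134 groups of 5 arrays examined for an outlying array (1 strain and 1 gene each), 8 held one by Dixon's criterion, and chance alone flags about 1 in 20. These were Cdh2 in CL6G26 replicate 2 (6.719), Dnajc3 and Hsp90b1 in P19CL6 replicate 2 (6.445 and 9.933), Greb1 in P19CL6 replicate 5 (2.968, under the floor), Myh9 in P19CL6 replicate 5 (10.485), Sgce in CL6G26 replicate 2 (7.419), Slc2a3 in P19CL6 replicate 4 (11.609) and Tmem45a in CL6G26 replicate 5 (3.076). For Greb1 and Myh9 the outlying array lay away from the other strain, and for the other 6 genes toward it.

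The difference between CL6G26 and the mean of the other 3 sublines, tested in the same limma fit, set CL6G26 apart for the following called genes. Genes higher in CL6G26 were Irx5 (2.833), Greb1 (2.737), Snx7 (2.181), Ret (1.488) and Mest (1.331). Genes lower in CL6G26 were Lpl (-1.288), Igha (-1.291), Ptgr1 (-1.337), Sfrp1 (-1.439), Cep41 (-1.773), Apobec1 (-1.887), Pm20d1 (-2.166), Acyp2 (-2.180), Mt3 (-2.225), Cacnb2 (-2.567), Ctsc (-2.646), Tmem45a (-2.867) and Plin2 (-2.957). Ifitm1 was the 1 called gene that passed the adjusted p in the opposite direction, at 1.426. For 8 of the lower genes all 5 CL6G26 arrays lay under the floor, so their values are not measured sizes. With signals raised to the floor they were -1.49 for Plin2, -0.74 for Ctsc, -0.62 for Tmem45a and Apobec1, -0.42 for Igha, -0.39 for Acyp2, -0.17 for Pm20d1 and -0.12 for Mt3, of which Plin2 alone was still called.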

How the results depend on the processing

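Of the 34 calls, 15 held under all 22 alternatives and 18 genes kept an adjusted p under 0.05 in all of them. With signals as deposited 22 genes were called and 34 passed by the adjusted p alone, the median of all genes then being 0.125; the cause was not tested. The number past the adjusted p alone was 164 at the main setting, 250 without the P19 arrays and 360 without the P19 arrays and CL6G52 replicate 1. These arrays enter the pooled spread. On the first principal component of MOE430A, P19 replicates 1 to 3 (-49.0, -45.7 and -50.2) lay apart from replicates 4 and 5 (-13.6 and -12.1). CL6G52 replicate 1 (22.3) lay apart from replicates 2 to 5 (-5.13 to -3.42). With signals raised to the floor 47 genes were called against the mean of the other sublines, 11 of the 18 shared ones among them, and 28 against P19CL6. Igha reversed to 0.646 without the filter, where another probe set stood for it. Leaving out 1 replicate gave 29 to 37 calls. P19CL6 replicates 3 to 5 alone gave 46 calls, 29 of them shared with the 34. Scaling each array to one trimmed mean gave 40 calls, 5 higher and 35 lower. With the replicate block 34 genes were called, the same 34. Of the list members, Blvrb and Dnajc3 lost the adjusted p with the block. Genes at or under the floor have bounds only.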

Other observations

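Zdbf2, an imprinted gene of chromosome 1 that is in none of the gene lists, was chosen after its values were seen. It read 7.08, 7.38, 7.08, 6.81 and 6.86 in CL6G26 and 7.87, 7.82, 8.12, 8.03 and 8.17 in P19CL6, a difference of -0.96 that passed the adjusted p of the limma fit. Against the mean of the other sublines it differed by -0.09.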
